A study of Rattus norvegicus with 4 samples.

Results

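The genes described here encode the gap junction, water, potassium and bicarbonate proteins of astrocytes: the connexins Gja1 (Cx43) and Gjb6 (Cx30), the water channel Aqp4, the inward rectifier potassium channel Kcnj10 (Kir4.1), the sodium pump beta subunits Atp1b1 and Atp1b2, and the sodium bicarbonate cotransporter Slc4a4 (NBCe1). The rule that picked them uses gene names alone, although it was set with earlier results of these data known, and they are 7 of the 35731 genes named on the array. They were read by 13 of the 41012 non-control probes of a rat whole genome array. Of these 13 probes 10 exceeded background clearly on all arrays of some RNA group, and they belonged to 6 of the 7 genes. Kcnj10 had no such probe and was not tested.

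Astrocytes take up the potassium that active neurons release, through Kir4.1 and through the sodium pump, whose beta subunit carries it to the membrane. The connexins Cx43 and Cx30 join astrocytes into a network through which potassium and small molecules spread. Aqp4 lets water follow at the endfeet around vessels, and NBCe1 moves sodium and bicarbonate together and so takes part in pH control. In the brain Atp1b2 is known as a glial subunit and Atp1b1 as a subunit abundant in neurons.

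RNA of 3 kinds was measured. CC-CJ was RNA of astrocytes left after cold jet, in which streams of ice-cold saline detach the neurons from a neuron-astrocyte co-culture. AA-CJ was RNA of astrocytes cultured without neurons and given cold jet as well, and CC was RNA of whole co-cultures without cold jet. In all 3 the astrocytes came from Wistar rat pups at postnatal day 1, and the neurons of CC and CC-CJ came from the hippocampi of mouse embryos at embryonic day 18, so mouse transcripts were read by rat probes. The samples were pools of animals, no sample carried a mutant allele or transgene, and the days in culture at harvest of these RNAs are not given in the sources used here. Each of the 4 arrays carried CC-CJ in Cy3, against AA-CJ in Cy5 on 2 of them and against CC in Cy5 on the other 2. No dye swap was made, so dye and condition cannot be told apart in CC-CJ versus AA-CJ and in CC-CJ versus CC. In CC versus AA-CJ both RNAs were in Cy5 and were set against each other through CC-CJ, so that a dye effect equal on all arrays drops out. With 2 arrays per comparison the precision was limited by the number of arrays. The p-values and intervals from limma combined the spread of a gene between replicate arrays (2 residual degrees of freedom over both comparisons) with that of all genes tested (4.71 prior degrees of freedom).

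The share of probes well above background was 50.13% to 55.73% in the CC-CJ channels, 58.53% and 56.25% in AA-CJ, and 62.5% and 62.59% in CC. At most 4 spots of a channel were saturated. All 11 astrocyte markers, among them Gfap and Aldh1l1, were tested, and their summed level was 43295 to 55697 in AA-CJ, 52391 to 56190 in CC-CJ and 50467 to 54107 in CC (linear intensity, lowest and highest array). The neuron markers Rbfox3, Slc17a7, Gad1 and Celf4 and the microglia markers Itgam, Ptprc and Cx3cr1 had no probe that was well above background throughout an RNA group or no probe on the array. In RNA of mixed cells, fewer cells of a type and less RNA per cell cannot be told apart.

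M below is log2 of CC-CJ over the other RNA on an array, and a level is log2 intensity per channel after normalization. Across all 21366 genes tested with limma at an adjusted p of 0.05, CC-CJ exceeded AA-CJ for 1.94% and fell short of it for 1.16%. Against these shares, 2 of the 6 tested members were called higher in CC-CJ, Atp1b1 and Aqp4, and 0 lower, also 0 lower at an unadjusted p under 0.05. In CC-CJ versus CC, 0.0983% of all genes were called higher and 2.26% lower, and 1 member was called, Atp1b1, which was lower. In CC versus AA-CJ, 2.58% of all genes were called higher and 0.0796% lower, and 1 member, again Atp1b1, was higher. The median difference of the 6 members was 0.17 (log2) in CC-CJ versus AA-CJ, where that of all genes was -0.016, and 0.26 in CC versus AA-CJ, where that of all genes was 0.0015. In CC-CJ versus CC the medians were 0.0077 and -0.024.

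**Figure D1:**
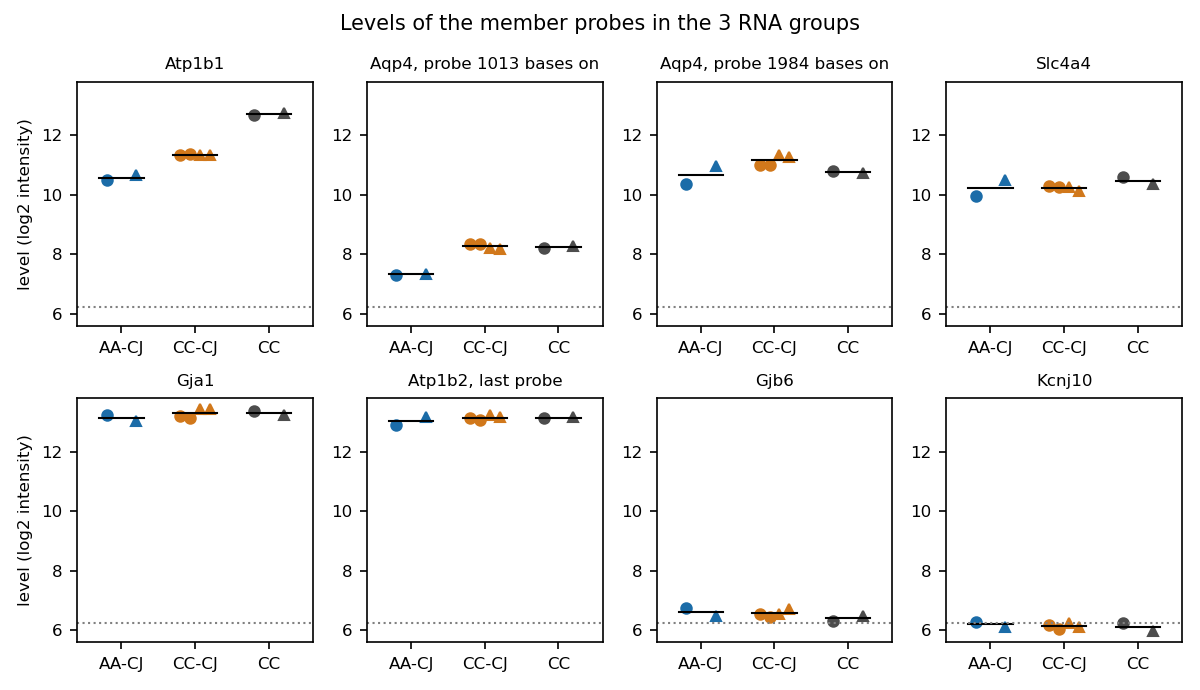
Levels (log2 intensity, vertical axes) of 8 of the 13 member probes in AA-CJ, CC-CJ and CC. Circles are replicate 1, triangles replicate 2 (CC-CJ was measured on 2 arrays of each number), bars the group means, and the dotted line, at 6.24, is the highest of the lowest levels that were well above background in a channel. The Atp1b1 groups do not overlap, with AA-CJ lowest and CC highest, while the Kcnj10 levels lie around the dotted line.

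Atp1b1, the beta subunit of the sodium pump that neurons also express, separated the 3 RNAs. Its probe, at chr13:80214142-80214201 on the minus strand (rn4), gave levels of 10.50 and 10.65 in AA-CJ, 11.35, 11.38, 11.33 and 11.35 in CC-CJ, with 12.68 and 12.75 in CC. The groups did not overlap, and the gaps between them exceeded the spread within any of them. AA-CJ was the lowest group and CC the highest.

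On the arrays against AA-CJ the M of Atp1b1 was 0.85 and 0.68, a mean difference of 0.77 (SE 0.0866, 95% interval 0.56 to 0.97, limma adjusted p = 0.0128), or 1.70-fold higher in CC-CJ. On the arrays against CC it was -1.30 and -1.40, a mean of -1.35 (interval -1.56 to -1.14, limma adjusted p = 0.000525), which puts CC-CJ at 0.392 of CC. CC exceeded AA-CJ by 2.12 (SE 0.122, interval 1.83 to 2.41, limma adjusted p = 0.000395), or 4.34-fold. After cold jet Atp1b1 was thus lower than in the whole co-culture and higher than in astrocytes cultured alone. The difference from AA-CJ depended on the normalization and on an array: it turned to -0.45 after median centring, where the median of all genes stood at -0.49, and its adjusted p was 0.0786 without AA-CJ replicate 1. The other contrasts of Atp1b1 passed under every alternative run.

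By the threshold of the mean plus 2 SD of M on both arrays, which the study's methods use, CC-CJ exceeded AA-CJ for 1.01% of all probes. The limits here came from M after loess, not after the study's own normalization. Among the 13 member probes 2 passed, that of Atp1b1 and 1 Aqp4 probe. The other Aqp4 probes did not pass on both arrays. The study's methods also ask that the probes of an mRNA give comparable results, and that criterion was not applied here. The Atp1b1 probe also lay below the mean minus 2 SD on both arrays against CC, at limits of -0.42 and -0.55, and no other member probe did. The share of all probes below both of these limits was not computed. A further criterion of those methods leaves out transcripts that pass against AA-CJ but also fall this far against CC, as possible left-over neuronal RNA, and by it the Atp1b1 probe would not be selected.

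Some markers of other cells were called in the same contrasts as Atp1b1. Of 11 tested neuron markers 4 were called with CC-CJ above AA-CJ, 7 with CC-CJ below CC and 6 with CC above AA-CJ, and 0 in the opposite directions. Their summed level was 8895 to 9435 for AA-CJ, from cultures without neurons, 8483 to 8918 for CC-CJ and 20938 to 22261 for CC. The sum was thus not higher in CC-CJ than with AA-CJ RNA. In CC-CJ versus AA-CJ 4 of the 11 differences were below 0 (Nefl, Nefm, Stmn2 and Syt1), and these 4 were not called in CC versus AA-CJ. The 6 that were called there all had differences above 0 in CC-CJ versus AA-CJ, from 0.095 for Snap25 to 2.03 for Gap43. Of 7 tested microglia markers 3 were called with CC-CJ above AA-CJ, 5 with CC-CJ below CC and 5 with CC above AA-CJ, and their summed level was 1021 to 1138, 1581 to 2013 and 3449 to 3552 in AA-CJ, CC-CJ and CC. The part of either cell type in the Atp1b1 differences was not tested.

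Atp1b1 was set beside the 6 neuron markers whose level in CC was at least 1 (log2) above that in AA-CJ, a limit chosen after the data were seen. The excess of CC over the mean of AA-CJ, in linear intensity, was taken as the whole, and the part of it still present in CC-CJ on the same array was expressed as a percentage. For Atp1b1 22.6% and 20.2% were left on the 2 arrays, a mean of 21.4% ± 1.69 (SD, n = 2). For the neuron markers the mean ranged from 4.92% for Dcx, a microtubule protein of young neurons, to 14.0% for Tubb3, a neuronal tubulin, with a median of 9.33%. None of these 6 markers had as large a share left as Atp1b1, although Snap25, a synaptic vesicle fusion protein at 10.2%, was not well above background on all CC-CJ arrays. The percentages compare Cy3 with Cy5 levels and carry no test. No such percentage was computed for microglia markers, of which Lyz2, C1qa, Tyrobp and C1qb lay over the same limit. Against CC their log2 differences were -1.23 (Lyz2), -1.06 (C1qa), -0.74 (Tyrobp) and -0.84 (C1qb). Each was a smaller fall than the -1.35 of Atp1b1. A fall against CC leaves out the AA-CJ level, so it is a different measure from the share left. The share of Atp1b1 was compared with that of these neuron markers alone, and its source was not tested.

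**Figure D2:**
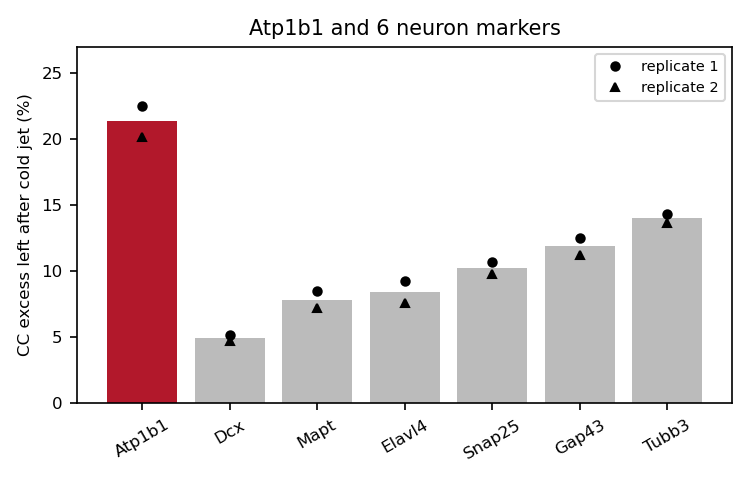
Percentage of the CC excess over AA-CJ (linear intensity) still present in CC-CJ, for Atp1b1 (red) and 6 neuron markers (grey). Bars are means of the 2 arrays against CC and symbols the replicates. Atp1b1 lies at 21.4% and the neuron markers between 4.92% and 14.0%. Microglia markers are not included.

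The other beta subunit among the members, Atp1b2, was read by 3 probes on the minus strand of chromosome 10, which started 0, 2190 and 3302 bases along the genome in the direction of transcription. The probe farthest along, at chr10:56418392-56418451, was also the brightest, with levels of 12.91 and 13.17 in AA-CJ, 13.06 to 13.22 in CC-CJ and 13.13 and 13.16 in CC. Its groups overlapped, and the widest spread lay between the AA-CJ replicates. Over the 3 probes Atp1b2 differed by 0.15 (SE 0.0837, 95% interval -0.045 to 0.35, limma adjusted p = 0.327) between CC-CJ and AA-CJ, by 0.025 (interval -0.17 to 0.22) between CC-CJ and CC, and by 0.13 (interval -0.15 to 0.41) between CC and AA-CJ. None of the 3 passed. The interval for CC versus AA-CJ ended at 0.41, and that of Atp1b1 for the same contrast began at 1.83.

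Atp1b3, a related beta subunit of many tissues, had M values of 0.17 and 0.18 against AA-CJ and 0.033 and -0.015 against CC, with a limma adjusted p of 0.260 in CC-CJ versus AA-CJ, and passed in no contrast.

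**Figure D3:**
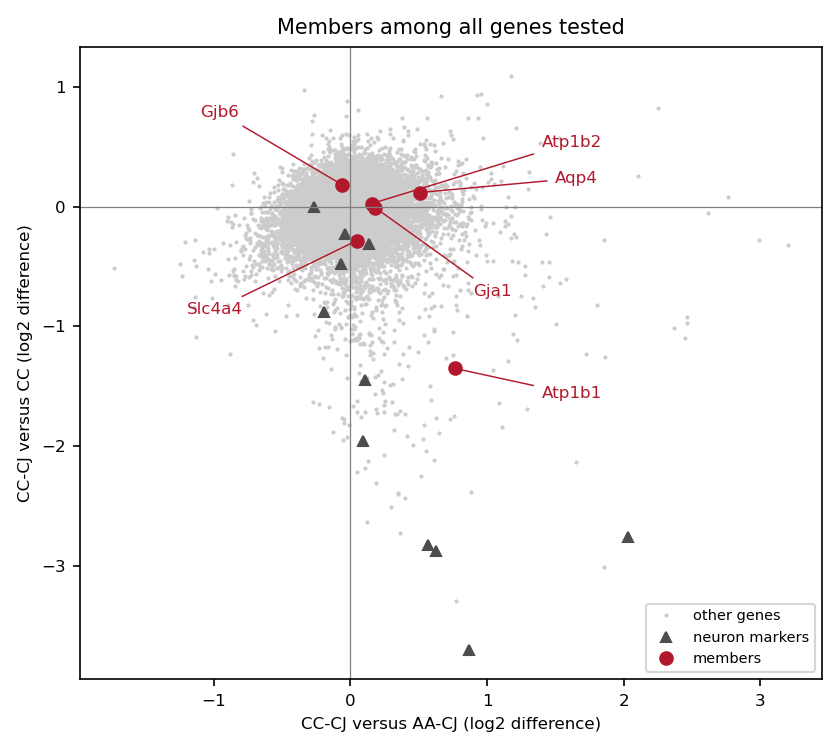
Log2 difference of each of the 21366 genes tested in CC-CJ versus AA-CJ (horizontal) and CC-CJ versus CC (vertical). The axes share the CC-CJ RNA. Members are red circles, 11 neuron markers are triangles. Atp1b1 lies at 0.77 and -1.35 and Aqp4 at 0.51 and 0.12, while the other 4 members lie between -0.28 and 0.18 on both axes. After median centring the horizontal values of Atp1b1 and Aqp4 fell below 0, with the median of all genes at -0.49.

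Aqp4, the water channel of astrocyte endfeet, was read by 4 probes on the minus strand of chromosome 18, and they did not behave alike. In the direction of transcription they started 0, 394, 1013 and 1984 bases along the genome (rn4). The first, at chr18:6628415-6628474, was printed in 10 spots, was well above background in 1 of 8 channels, and was left out. The second, at chr18:6628021-6628080, was above background in 3 of 8 channels, in none of the 4 CC-CJ channels, and gave M of -0.0061 and 0.15 against AA-CJ and -0.019 and -0.047 against CC.

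The third Aqp4 probe, at chr18:6627402-6627461, was above background in all 8 channels. Its levels were 7.31 and 7.35 in AA-CJ, 8.33, 8.34, 8.20 and 8.19 in CC-CJ, with 8.22 and 8.27 in CC. AA-CJ lay apart below both other groups, and CC fell within the range of CC-CJ. Its M was 1.03 and 0.86 against AA-CJ, a mean of 0.94 (SE 0.0968, limma adjusted p over probes = 0.00756), and 0.12 and -0.088 against CC. CC exceeded AA-CJ by 0.92 on this probe (limma adjusted p over probes = 0.0188).

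The probe farthest along, at chr18:6626431-6626490, was brighter. Its levels were 10.35 and 10.97 in AA-CJ, 11.00, 11.01, 11.33 and 11.27 in CC-CJ, with 10.80 and 10.74 in CC. On this probe CC-CJ was the highest group and CC lay between the AA-CJ replicates. Its M was 0.65 and 0.36 against AA-CJ, a mean of 0.51 (SE 0.116, limma adjusted p over probes = 0.0642), and 0.21 and 0.53 against CC. CC versus AA-CJ was 0.13 (limma adjusted p over probes = 0.719). The third probe and the farthest therefore placed CC differently, at the level of CC-CJ and at that of AA-CJ, and the difference between probes was not tested.

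**Figure D4:**
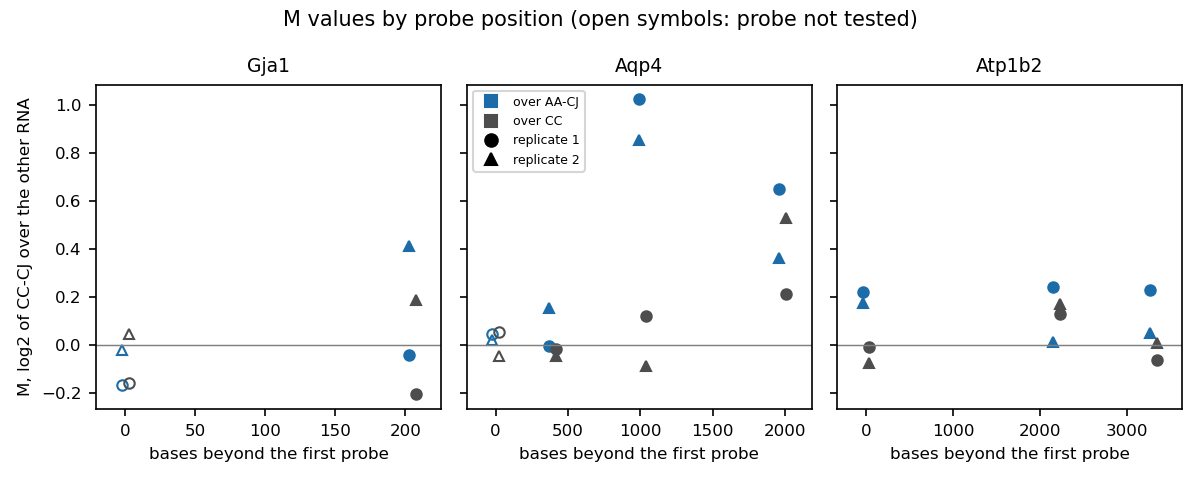
M (log2 of CC-CJ over AA-CJ, blue, or over CC, grey) of each probe of Gja1, Aqp4 and Atp1b2 by its genomic distance in bases from the first probe in the direction of transcription. Circles are replicate 1, triangles replicate 2, and open symbols probes that were not tested. The Aqp4 probe at 1013 bases lies at 1.03 and 0.86 over AA-CJ and near 0 over CC, and the probe at 1984 bases is above 0 on all 4 arrays, before median centring.

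Averaged over its 3 tested probes, Aqp4 in CC-CJ exceeded AA-CJ by 0.51 (SE 0.0808, 95% interval 0.31 to 0.70, limma adjusted p = 0.0310), or 1.42-fold. The M of the gene was above 0 on both arrays. After median centring the difference turned to -0.069, where the median of all genes stood at -0.49 and Aqp4 lay 0.42 above that median. Over the 2 probes that were above background in all 3 RNA groups, a choice made after the data were seen, the gene also passed, with a mean of 0.72. The call was lost without AA-CJ replicate 1 (adjusted p = 0.151) and without AA-CJ replicate 2 (adjusted p = 0.0678). CC-CJ and CC differed by 0.12 (interval -0.075 to 0.31, limma adjusted p = 0.499), and CC and AA-CJ by 0.39 (interval 0.12 to 0.66, limma adjusted p = 0.155).

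Aqp4 was the only 1 of the 11 astrocyte markers called in any contrast, in CC-CJ versus AA-CJ. There 3 of the 11 differences were above 0, those of Aqp4, Slc1a2 and Slc1a3. Slc1a2 differed by 0.58 (limma adjusted p = 0.0835), more than Aqp4, and Slc1a3 by 0.32 (adjusted p = 0.276). In the same contrast 4 of 11 neuron markers, 3 of 7 microglia markers and 1 of 3 endothelial markers (Kdr, a receptor of vascular endothelial growth factor) were higher. The summed level of the endothelial markers was 252 to 295 in AA-CJ, 728 to 815 in CC-CJ and 814 to 828 in CC. Kdr differed by 2.62 in CC-CJ versus AA-CJ, Cdh5 by 0.25 (limma adjusted p = 0.126) and Vwf by -0.033 (adjusted p = 0.888). That of the 5 fibroblast and meningeal markers was 131980 to 145698 in AA-CJ, 123967 to 137294 in CC-CJ and 158653 to 159950 in CC, and for 2 of them CC-CJ was below CC and for 1 CC was above AA-CJ. Of 10 oligodendrocyte markers 2 had CC-CJ below CC and 1 had CC above AA-CJ. The part of these cells in the Aqp4 difference was not tested. Of 11 other tested genes of water channels and endfoot anchoring 0 passed in any contrast by limma (3, 2 and 2 at an unadjusted p under 0.05 in CC-CJ versus AA-CJ, CC-CJ versus CC and CC versus AA-CJ, where 22.6%, 16.9% and 17.8% of all genes lay under it), and their differences in CC-CJ versus AA-CJ ran from -0.38 to 0.20. Aqp1, another water channel, had M of -0.22 and -0.47 against AA-CJ, and Aqp9, which also passes glycerol, 0.079 and -0.0016.

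**Figure D5:**
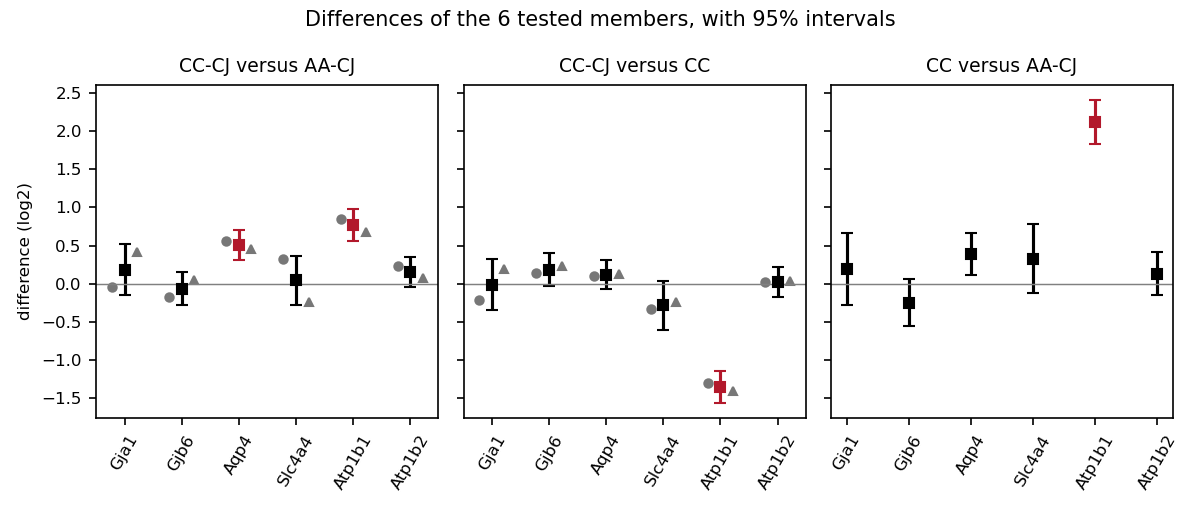
Log2 differences of the 6 tested members in the 3 contrasts. Squares are the means with 95% intervals from limma, red where the adjusted p was under 0.05, and the grey circles and triangles are M on replicates 1 and 2. Atp1b1 passes in all 3 contrasts, at 0.77, -1.35 and 2.12, and Aqp4 in CC-CJ versus AA-CJ at 0.51. Median centring turned both signs in CC-CJ versus AA-CJ, with the median of all genes at -0.49.

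Gja1 encodes Cx43, the main connexin of astrocyte gap junctions. Its bright probe, at chr20:35422026-35422085 on the plus strand, gave levels of 13.23 and 13.01 in AA-CJ, 13.18, 13.14, 13.42 and 13.42 in CC-CJ, with 13.35 and 13.23 in CC. All groups overlapped. The CC-CJ levels fell into pairs by replicate number, with 13.18 and 13.14 on the replicate 1 arrays and 13.42 on both replicate 2 arrays.

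The probe was printed in 10 spots per array, and the SD of M among these spots was 0.0189 to 0.0366. M was -0.045 and 0.41 against AA-CJ and -0.21 and 0.19 against CC, so that the replicates of each comparison had opposite signs. The mean differences were 0.18 (SE 0.140, 95% interval -0.15 to 0.52, limma adjusted p = 0.487), -0.0098 (interval -0.34 to 0.32, adjusted p = 0.979) and 0.19 (interval -0.28 to 0.67, adjusted p = 0.655) in CC-CJ versus AA-CJ, CC-CJ versus CC and CC versus AA-CJ. A difference of Gja1 was not detectable with these arrays, and the intervals include changes of up to 0.52 and 0.67. A second Gja1 probe, 205 bases before the bright probe, was above background in no channel.

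Gjb6 encodes Cx30, which appears in astrocytes later in development than Cx43. Its probe, at chr15:36177768-36177827 on the minus strand, was close to background, with 7 of 8 channels well above it. Levels were 6.75 and 6.49 in AA-CJ, 6.46 to 6.72 in CC-CJ and 6.32 and 6.49 in CC, and the groups overlapped. M was -0.18 and 0.053 against AA-CJ (mean -0.062, 95% interval -0.28 to 0.16, limma adjusted p = 0.739). Against CC it was 0.14 and 0.23, with a limma adjusted p of 0.369, and CC and AA-CJ differed by -0.25 (interval -0.55 to 0.063).

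Of 8 other tested connexin, pannexin and junction scaffold genes 0 passed in any contrast by limma, and at an unadjusted p under 0.05 the count was 0, 1 and 0 in the same order, beside 22.6%, 16.9% and 17.8% of all genes. Gjb2, which encodes Cx26, had M of -0.10 and 1.06 against AA-CJ and 0.45 and 0.40 against CC. Its arrays against AA-CJ differed by more than those of any member, and its limma adjusted p was 0.291 in CC-CJ versus AA-CJ and 0.415 in CC-CJ versus CC.

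Kcnj10, the potassium channel of glia, was well above background in none of the 8 channels. Its probe lies at chr13:88370316-88370375 on the plus strand, and its levels were 5.99 to 6.30 over all channels, where the lowest level well above background in a channel was 5.96 to 6.24. No fold is given, since none of the 3 RNA groups was well above background. Kcnj16, which forms channels together with Kcnj10, was likewise above background in no group.

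In the list of potassium channels and chloride cotransport 7 of 10 genes were tested, and for 2 of them CC exceeded both CC-CJ and AA-CJ. At an unadjusted p under 0.05 by limma the counts were 2, 2 and 3 in CC-CJ versus AA-CJ, CC-CJ versus CC and CC versus AA-CJ. Of all genes 22.6%, 16.9% and 17.8% lay under it. Slc12a5, the potassium chloride cotransporter of neurons, had M of -0.95 and -0.93 against CC (limma adjusted p = 0.00211), and the excess of CC over AA-CJ was 1.30 (adjusted p = 0.00236). A second Slc12a5 probe was above background in no channel and was not tested. Without the filter on dim probes, which adds it, the differences shrank to -0.46 and 0.69 (limma adjusted p 0.0494 and 0.0358). Kcnma1, the pore of the large-conductance calcium-activated potassium channel, was tested on a probe that was well above background in CC alone. Its mean level was 7.25 in CC, 6.57 in CC-CJ on the same arrays and 6.19 in AA-CJ. The fitted differences were -0.67 in CC-CJ versus CC (limma adjusted p = 0.0124) and 0.67 in CC versus AA-CJ (adjusted p = 0.0487). The probe passed the filter only through CC, the group where it was high, so these p-values are not independent of the filter. Outside CC the levels were not well above background, so no fold is given. A second Kcnma1 probe was not tested: it was well above background in 1 of 4 CC-CJ channels, 1 of 2 AA-CJ channels and 0 of 2 CC channels, with mean levels of 6.37 in AA-CJ, 5.91 in CC-CJ on the arrays against CC, and 5.83 in CC. Without CC replicate 2 the adjusted p of Kcnma1 was 0.129 in CC-CJ versus CC. In CC versus AA-CJ it was 0.127 without AA-CJ replicate 1, 0.0913 without CC replicate 1 and 0.171 without CC replicate 2.

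Slc4a4, the sodium bicarbonate cotransporter, was read by a probe at chr14:20382443-20382502 on the minus strand. Levels were 9.95 and 10.49 in AA-CJ, 10.28, 10.25, 10.26 and 10.13 in CC-CJ, with 10.59 and 10.36 in CC. CC-CJ lay below CC and between the AA-CJ replicates, which were the farthest apart. M was 0.33 and -0.23 against AA-CJ (mean 0.046, SE 0.135, 95% interval -0.28 to 0.37, limma adjusted p = 0.881), with opposite signs on the replicates. Against CC it was -0.34 and -0.23 (mean -0.28, interval -0.61 to 0.038, limma adjusted p = 0.348), and CC versus AA-CJ was 0.33 (interval -0.13 to 0.78, adjusted p = 0.421).

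Of 8 other tested genes of bicarbonate transport and pH control 1 passed. At an unadjusted p under 0.05 by limma the counts were 3, 2 and 4 in CC-CJ versus AA-CJ, CC-CJ versus CC and CC versus AA-CJ, beside 22.6%, 16.9% and 17.8% of all genes. Slc4a8, a sodium-driven bicarbonate exchanger of neurons, had M of -0.42 and -0.51 against CC (limma adjusted p = 0.0362), and the excess of CC over AA-CJ was 0.65 (adjusted p = 0.0394). The Slc4a8 probe was dim, with mean levels of 7.21 in CC, 6.74 in CC-CJ on the same arrays and 6.50 in AA-CJ. Slc4a8 was well above background in CC-CJ on only 1 of the 2 arrays against CC. Its calls were lost without either CC replicate in CC-CJ versus CC (adjusted p 0.0981 and 0.421) and without any of the 4 arrays in CC versus AA-CJ (adjusted p 0.0764 to 0.170). Slc4a7, a related cotransporter, had M of 0.31 and 0.16 against AA-CJ and -0.25 and 0.29 against CC. Slc4a10, another neuronal family member, was well above background in CC alone, so no fold is given. Its fitted difference in CC-CJ versus CC was -0.42 (limma adjusted p = 0.0517, not passed). Over these 4 lists of related genes 34 of 48 genes were tested. In CC-CJ versus AA-CJ 0 were called, beside 1.94% of all genes higher and 1.16% lower. For 3, Slc12a5, Kcnma1 and Slc4a8, CC-CJ was below CC, beside 2.26% of all genes. For the same 3 CC was above AA-CJ, beside 2.58% of all genes. Of these, Kcnma1 passed the filter through CC alone.

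The genes nearest to Atp1b1 over the 4 M values, by root mean square difference among 8421 named genes, were Csnk1e, a casein kinase (0.053), Laptm5, a lysosomal membrane protein of immune cells (0.12), and Apba2, a neuronal adaptor protein (0.17). M of Csnk1e was 0.81 and 0.74 against AA-CJ and -1.25 and -1.47 against CC. The genes nearest to Aqp4 were Thoc1, a factor of messenger RNA export (0.041), Ccnd1, a cyclin of the cell cycle (0.054), and Prickle1, of the planar cell polarity pathway (0.056). M of Thoc1 was 0.51 and 0.45 against AA-CJ and 0.042 and 0.11 against CC. These are likenesses over 4 arrays that share the CC-CJ RNA.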

How the data were processed

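RNA was measured on 4 two-colour Agilent arrays of 1 slide. The deposited scanner files hold spot intensity, background and flags per dye, and a log10 ratio, as written by Feature Extraction 9.5.1.1 with probe positions on rn4. The deposited value table matched log2 of Cy5 over Cy3 and served as an alternative. Groups came from the sample labels. Here the mean intensity was corrected with normexp (offset 50) and normalized by loess (span 0.3) in limma 3.58.1 (R 4.3.3). Control and flagged spots were left out and spots of a probe averaged. Levels were scaled between arrays by Aquantile. Probes that exceeded background on all arrays of some RNA group (24865, by the scanner's well-above-background flag) were averaged per gene, and 21366 genes were fitted over all 4 arrays with lmFit and eBayes, with Benjamini-Hochberg adjustment over all of them. Probe p-values were adjusted over all kept probes. Probes were matched to members by symbol or RefSeq accession, which named 10835 probes. All members are named. Of related genes, those called and the closest relatives are named, with the 3 genes nearest to each called member. The members and lists were chosen with earlier results of these data known. A list of further sodium pump genes is not reported here. Exon positions and probe sequences were not analysed here. The fit was tested on simulated data.

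Same-numbered arrays of the comparisons were checked for pairing: the deviations of their M values correlated at r = -0.11 and those of their CC-CJ levels at r = 0.46, over 21361 genes. With 2 pairs the numbers were not taken as pairing the arrays. Whether same-numbered arrays carried the same CC-CJ extract is not given in the sources used here. Between CC-CJ channels the SD of the level difference was 0.116 and 0.151 for the same number and 0.154 to 0.188 otherwise.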

Additional observations from a re-analysis of the deposited data

How the results depend on the processing

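The call of Atp1b1 held under all 16 alternatives in CC-CJ versus CC (-2.60 to -1.26) and in CC versus AA-CJ (2.04 to 2.20). In CC-CJ versus AA-CJ the 2 members called became 0 with Agilent's own log ratio, 1 with the brightest probe of a gene, 1 without the filter on dim probes, 1 with a normexp offset of 16, 4 after median centring and 0 to 2 when an array was left out. With the replicate block, which takes same-numbered arrays as pairs, 1 was called there (Atp1b1), with Aqp4 at an adjusted p of 0.0882, and no other member's call changed, while the calls of Slc4a8 in both contrasts (0.112 and 0.109) and of Kcnma1 in CC versus AA-CJ (0.106) were lost. The crossed replicate block, added after the data were seen, kept 2. In CC-CJ versus CC median centring called 5 members. All members called after median centring in these 2 contrasts were lower, so no higher call of the main fit was kept there. Median centring, which ignores the trend of M with intensity, moved the median of all genes to -0.49 in CC-CJ versus AA-CJ and -0.59 in CC-CJ versus CC and turned Aqp4 to -0.069 and -0.52, Atp1b2 to -0.65 and -0.76, and, against AA-CJ, Atp1b1 to -0.45, Gja1 to -1.30 and Slc4a4 to -1.09. Relative to that median Atp1b1 was then at 0.034 and Aqp4 at 0.42 in CC-CJ versus AA-CJ. Aqp4 passed in 9 of 17 alternatives (adjusted p 0.0172 to 0.577) and Atp1b1 kept its direction and passed in 13 of 16 in that contrast, failing with Agilent's log ratio (0.101) and without AA-CJ replicate 1 (0.0786). Without the filter on dim probes Kcnma1 was at -0.30 in CC-CJ versus CC (0.165) and 0.32 in CC versus AA-CJ (0.282), and with Agilent's log ratio Kcnma1, at -2.11 and 2.73 (0.107 and 0.130), and Slc12a5, at -1.04 and 1.56 (0.0581 and 0.0527), were larger and did not pass. A difference that passed in neither setting was counted as kept whatever its sign. Over all genes the 415 higher and 247 lower calls of CC-CJ versus AA-CJ became 69 and 8 with Agilent's log ratio, 259 and 77 with an offset of 16, 709 and 12529 after median centring, 656 and 458 with a local regression on intensity and location, 605 and 516 with only the arrays of the comparison, 135 and 35 with the replicate block, 779 and 713 with the crossed block, and 94 and 28 without AA-CJ replicate 1. The 21 and 483 calls of CC-CJ versus CC became 5 and 269 with Agilent's log ratio, 641 and 13693 after median centring, 9 and 297 with the block, 82 and 767 with the crossed block, and 6 and 198 without CC replicate 2. The 551 and 17 calls of CC versus AA-CJ became 250 and 0 with Agilent's log ratio, 288 and 6 with the block, and 1019 and 203 with Cy5 levels alone. The causes were not tested. A fit of only the arrays of the comparison could not be run for CC versus AA-CJ, which needs all 4. Where an array was left out, the lone array was assumed to vary like the others. Signal over background limited Kcnj10, Gjb6 and the first Aqp4 probes.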
